A study of Mus musculus with 12 samples.

Results

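Manganese is taken up across the gut wall and is then needed in a small set of places inside the cell. Mitochondria use it in superoxide dismutase 2 (Sod2), which turns superoxide into hydrogen peroxide, in arginase 2 (Arg2), which splits arginine into ornithine and urea, and in pyruvate carboxylase (Pc), which makes oxaloacetate from pyruvate with the help of biotin. In the cytosol it serves arginase 1 (Arg1), the urea cycle form that is also made by some macrophages, and it can activate glutamine synthetase (Glul), which joins glutamate and ammonia. The Golgi is supplied by the calcium and manganese pumps Atp2c1 and Atp2c2 and by the carrier Tmem165, and many glycosyltransferases there need the metal. These 8 genes were picked by their names out of the 53715 genes of the expression table. The rule itself uses no measured value, but the choice was made with earlier results of these data known. All 8 passed the filter on low counts that left 16558 genes.

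They were followed by RNA-seq in the mucosa of ileum and colon, in mice that lack the manganese importer Slc39a8 in the intestinal epithelium (Slc39a8-IEC KO) and in control mice. Per the labels the strain was C57BL/6J, KO mice carried Slc39a8-fl/fl with Villin-Cre and controls carried Slc39a8-fl/fl alone, so both genotypes had the floxed alleles and only the KO mice had Cre. The study's methods describe male mice of 8 weeks, a Villin promoter that drives Cre in intestinal epithelial cells, and controls of several genotypes that were pooled in the study. There were 12 libraries, 3 for each tissue and genotype, each from 1 mouse, and nothing says whether ileum and colon came from the same mice. Mucosa holds epithelium, immune cells and stroma together, and in such bulk samples fewer cells of a type and less RNA per cell cannot be told apart.

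The libraries held 16749138 to 27903083 expected counts each. Slc39a8 ran from 5.22 to 8.39 CPM (counts relative to the effective library size) in control ileum, from 2.62 to 4.35 in KO ileum, from 20.1 to 20.8 in control colon and from 7.35 to 11.5 in KO colon, so the genotypes did not overlap in either tissue. Its difference over both tissues was -1.13 on the log2 scale (SE 0.17, edgeR adjusted p = 0.382 over all genes), the smallest p of any gene. Markers of ileal enterocytes (Fabp6, Slc10a2 and Fgf15, summed) lay between 6335 and 9070 CPM in ileum and between 574 and 922 in colon. Markers of colonocytes (Car1, Aqp8 and Slc26a3) lay between 15286 and 27663 CPM in colon and between 146 and 350 in 5 ileal libraries, but reached 2965 in ileum KO replicate 2. A pair of ileal libraries stood further apart. Control replicate 3 and KO replicate 1 had 25.2 and 14.7 CPM of 5 smooth muscle markers in sum, against 1460 to 2033 in the other 4 ileal libraries and 1886 to 2958 in colon. Results that rest on these libraries are given with and without them.

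No difference between KO and control mice passed the test in these 8 genes. With all 12 libraries, 4 comparisons were made, over both tissues, in ileum, in colon, and for the difference between the tissues. In each of them 0 of 8 genes had an adjusted p under 0.1, and none had an unadjusted p under 0.05. The background was 0.0% of 16558 genes called in each of these comparisons by edgeR, with 641, 252, 385 and 169 genes at an unadjusted p under 0.05, in that order. DESeq2 called 4, 2, 0 and 1 genes, none of them among the 8. Groups that do not overlap were counted as well. In 0 of 8 genes were all KO libraries above or all below the control libraries, against 0.411% of all genes in both tissues at once, 3.7% in ileum and 12.8% in colon.

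The precision differed between the genes. It reflects the spread of the libraries and, for Arg1, also its low counts of 3 to 17 per library. Over both tissues the KO to control fold was 0.996 for Sod2 (95% interval 0.885 to 1.12), 1.01 for Tmem165 (0.894 to 1.13) and 0.986 for Atp2c1 (0.866 to 1.12). These 3 genes were measured most narrowly. Glul had a fold of 1.10 (0.934 to 1.29), Pc of 1.05 (0.852 to 1.29) and Atp2c2 of 1.12 (0.797 to 1.56). The 2 arginases were the loosest, with 0.948 for Arg2 (0.567 to 1.59) and 0.594 for Arg1 (0.332 to 1.06).

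**Figure D1:**
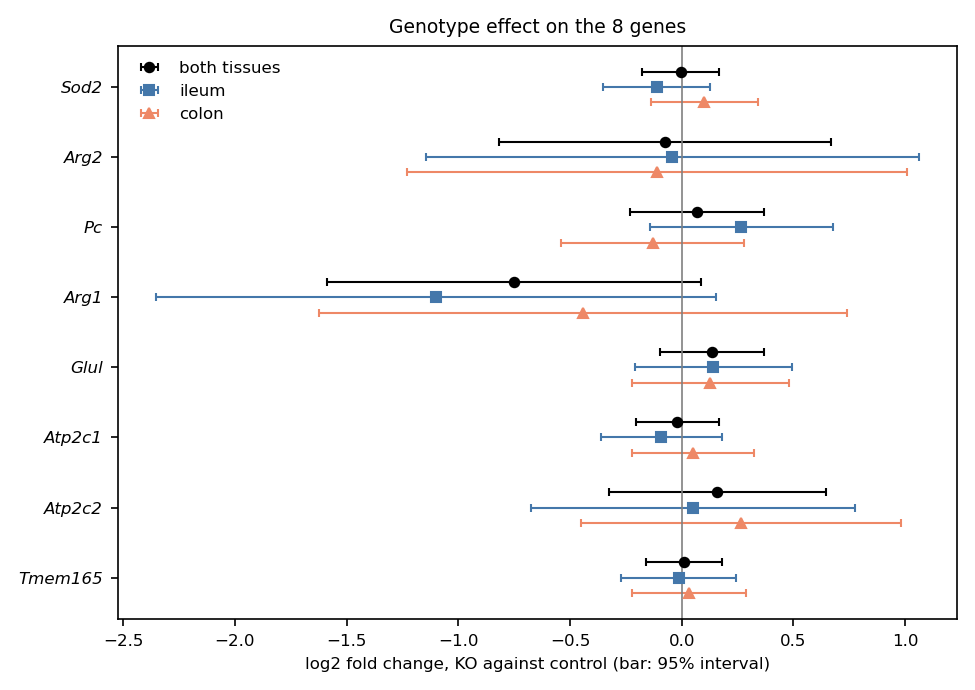
Log2 fold change of the 8 genes in KO against control mice, over both tissues, in ileum and in colon. Bars are 95% intervals of the edgeR fit over 12 libraries, and each of them includes 0.

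Sod2, the mitochondrial superoxide dismutase, was the most even of the mitochondrial enzymes. Its CPM in the 3 replicates was 61.4, 70.9 and 65.6 in control ileum and 61.8, 61.8 and 59.4 in KO ileum. In colon it was 69.8, 70.0 and 70.2 in control mice and 86.2, 69.2 and 70.1 in KO mice. The genotypes overlapped in both tissues, with log2 differences of -0.11 (SE 0.11) in ileum and 0.10 (SE 0.11) in colon. The colon difference was -0.03 without KO replicate 1, the library at 86.2 CPM.

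Arg2, the mitochondrial arginase, varied widely among replicates. It had 80.9, 21.8 and 94.7 CPM in control ileum and 94.6, 44.1 and 53.2 in KO ileum. In colon it had 38.7, 14.3 and 17.8 CPM in control mice and 17.5, 26.2 and 21.9 in KO mice. The ileal libraries were mostly the higher ones, but control replicate 2 lay below the highest colonic library. The genotype difference was -0.04 (SE 0.50) in ileum and -0.11 (SE 0.51) in colon, far smaller than the spread.

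Pc, the biotin-dependent carboxylase that refills the citric acid cycle, had 31.2, 36.6 and 45.2 CPM in control ileum and 58.4, 38.8 and 39.1 in KO ileum. Colon had 37.0, 38.1 and 41.5 CPM in control mice and 39.2, 30.2 and 37.1 in KO mice. The highest value of either ileal group came from its low-muscle library. The ileal genotype difference of 0.27 (SE 0.19) was 0.05 without KO replicate 1 and 0.42 without control replicate 3. Without both of these low-muscle libraries it was 0.19 (SE 0.16).

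Arg1, the cytosolic arginase, was barely measured, with 3 to 17 counts per library. In ileum it had 1.13, 0.333 and 0.467 CPM in control mice and 0.477, 0.274 and 0.142 in KO mice. In colon it had 0.717, 0.576 and 0.659 CPM in control mice and 0.330, 0.518 and 0.581 in KO mice. The values were lower on average in KO mice of both tissues, and the groups overlapped. The difference over both tissues was -0.75 (SE 0.39, adjusted p = 0.998). An exact two-sided permutation test of genotype within tissue gave p = 0.055, where the smallest possible p is 0.005. The ileal difference of -1.10 (SE 0.57) was -0.46 without control replicate 1. Without the low-muscle pair the ileal difference was -1.75 (SE 0.69, edgeR unadjusted p = 0.027, adjusted p = 0.952). The 6 macrophage and monocyte markers summed to 75.9 to 162 CPM in control ileum, 74.4 to 134 in KO ileum, 87.4 to 99.8 in control colon and 55.5 to 134 in KO colon, and their part in the Arg1 values was not tested.

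Glul, glutamine synthetase, had 63.7, 74.2 and 51.8 CPM in control ileum and 59.0, 75.5 and 74.6 in KO ileum. In colon it had 75.9, 88.6 and 103 CPM in control mice and 93.3, 94.9 and 104 in KO mice. All 6 colonic libraries were above all 6 ileal libraries, the closest by a small step (75.9 and 75.5 CPM), while the genotypes overlapped. The genotype difference was 0.14 (SE 0.16) in ileum and 0.13 (SE 0.16) in colon.

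Of the Golgi pumps, Atp2c1 is the form found in most tissues, and it was close to even here. It had 58.0, 50.8 and 62.8 CPM in control ileum and 56.4, 54.4 and 50.5 in KO ileum. Colon had 46.5, 52.3 and 50.7 CPM in control mice and 59.5, 47.7 and 47.7 in KO mice. The groups all overlapped, with genotype differences of -0.09 (SE 0.12) in ileum and 0.05 (SE 0.12) in colon.

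Atp2c2, the second pump, is known mainly from secretory epithelia. It had 7.25, 9.55 and 18.3 CPM in control ileum and 17.6, 8.36 and 10.6 in KO ileum. In colon it had 15.6, 17.9 and 16.3 CPM in control mice and 21.4, 17.6 and 20.96 in KO mice. In ileum the low-muscle library of each genotype lay within the colonic range, and the others were lower than every colonic library. The ileal genotype difference of 0.05 (SE 0.33) was 0.54 without control replicate 3 and -0.31 without KO replicate 1, and it was not called in either case.

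Tmem165, the Golgi carrier whose loss in people causes a disorder of glycosylation, had 71.7, 55.9 and 58.7 CPM in control ileum and 58.5, 61.6 and 64.3 in KO ileum. In colon it had 43.8, 44.6 and 38.6 CPM in control mice and 41.8, 45.2 and 42.8 in KO mice. The lowest ileal library (55.9) was above the highest colonic library (45.2). The genotype difference was -0.01 (SE 0.12) in ileum and 0.03 (SE 0.12) in colon.

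**Figure D2:**
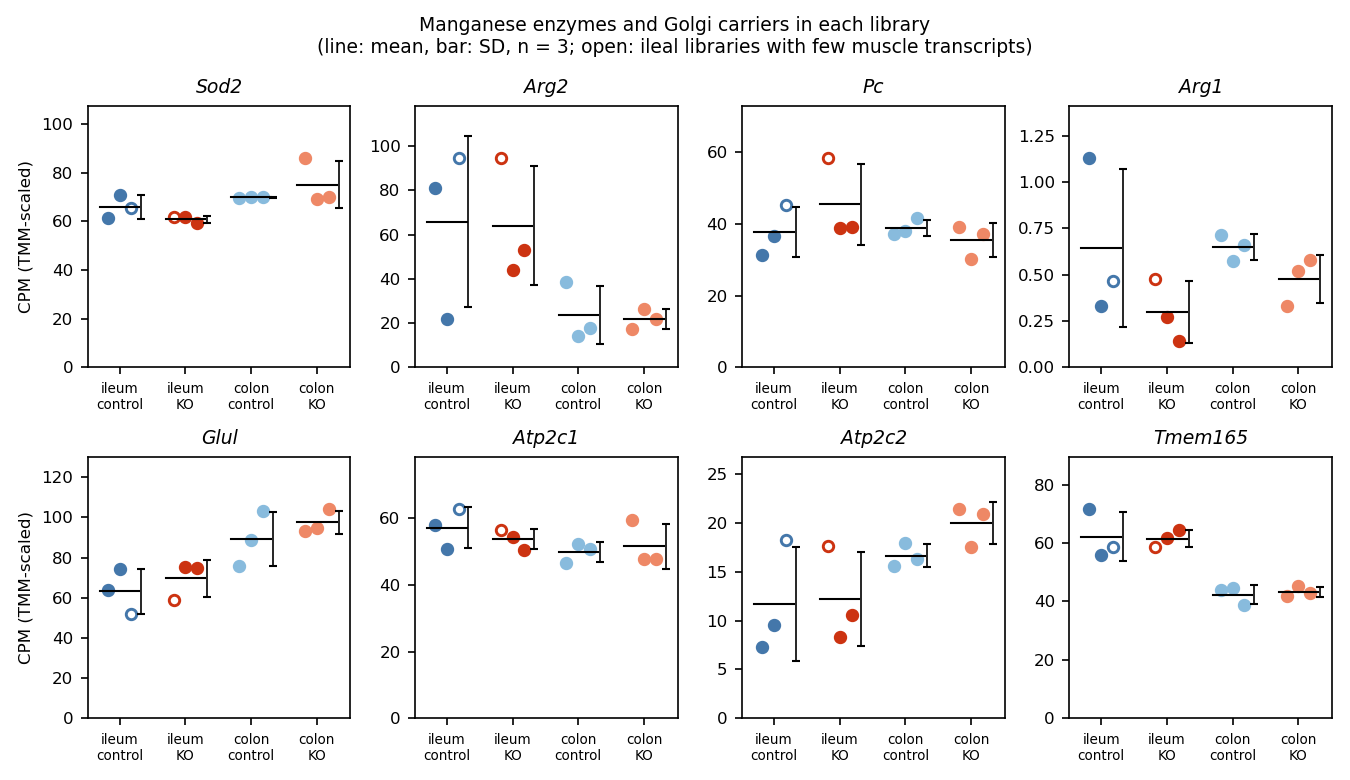
CPM of the 8 genes in each of the 12 libraries, by tissue and genotype, with the mean (line) and SD (bar, n = 3). Open points are the 2 low-muscle ileal libraries. Glul and Tmem165 separate by tissue, with all colonic libraries above and below the ileal ones respectively, and no gene separates by genotype. Of all genes, 40.7% did not overlap by tissue in control mice and 50.4% in KO mice.

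Glul and Tmem165, which kept all colonic and ileal libraries apart in opposite directions, both have an entry in the RefSeq promoter table of GRCm38.p6, as do Sod2, Pc and Atp2c1 (5 of 8 genes). Between the tissues, 40.7% of all genes did not overlap in control mice and 50.4% in KO mice. The share with all colonic and ileal libraries apart was not counted, so the separation is not read as particular to this pair. The 250 bases before their start sites are shown so that the windows of the tissue-separated pair can be compared. Capitals mark matches to the CCAAT box (CCAAT), the GC box (GGGCGG), the TATA box (TATAAA) and the core of the metal response element (TGCNCNC), each searched on both strands. The Glul window is chr1:153899679-153899928 and the Tmem165 window is chr5:76183630-76183879, both on the plus strand.
Glul: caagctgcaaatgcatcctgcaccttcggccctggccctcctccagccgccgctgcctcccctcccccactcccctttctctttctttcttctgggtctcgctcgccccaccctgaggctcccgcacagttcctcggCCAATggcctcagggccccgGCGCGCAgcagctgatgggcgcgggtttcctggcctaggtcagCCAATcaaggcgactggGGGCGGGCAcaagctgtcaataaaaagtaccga
Tmem165: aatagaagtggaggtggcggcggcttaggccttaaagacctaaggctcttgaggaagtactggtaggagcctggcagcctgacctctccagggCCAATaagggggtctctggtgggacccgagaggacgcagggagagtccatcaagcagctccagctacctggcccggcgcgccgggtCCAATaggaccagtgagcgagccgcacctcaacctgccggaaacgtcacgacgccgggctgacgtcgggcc
The Glul window held CCAAT at 113 and 50 bases before the start, 1 GC box, and 2 metal response element cores on the minus strand, the second of which overlaps the GC box. The Tmem165 window held 2 CCAAT boxes, at 157 and 71 bases before the start, and no match to the other motifs. Neither held TATAAA. Of 32851 promoter windows of this length, 33.8% held a CCAAT box, 32.7% a GC box, 12.4% a TATA box and 44.4% the metal response element core, so each of these matches is common. GC content was 64.8% for Glul and 63.6% for Tmem165, against a median of 52.4% over all windows.

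The tissue comparison asks how these genes are set in colon against ileum within each genotype. Glul was higher and Arg2 and Tmem165 were lower in colon of both genotypes, and Sod2 was higher in colon of KO mice. In control mice 3 of 8 genes passed an adjusted p of 0.1, 1 higher and 2 lower, against a background of 35.9% of all genes called (16.2% higher and 19.6% lower). In KO mice 4 of 8 passed, 2 higher and 2 lower, against 37.1% (17.1% higher and 20.0% lower). With 8 genes these shares are near the background, so the counts are not a result about this set. Groups that did not overlap were seen for 2 of 8 genes in control mice (Glul and Tmem165) and for 4 of 8 in KO mice (Sod2, Arg2, Glul and Tmem165), where 40.7% and 50.4% of all genes did not overlap. The difference between the tissue effects in control and KO mice passed the test in none of the 8, so their values are given side by side.

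Tmem165 had the lowest p of the 8 in both genotypes. It was lower in colon by a log2 fold change of -0.55 (SE 0.12, adjusted p = 0.00455) in control mice and -0.51 (SE 0.12, adjusted p = 0.0075) in KO mice, which is 0.682 and 0.704 times the ileal level. It passed in 24 of 24 alternative analyses in control mice and in 23 of 24 in KO mice. The exception scaled by library size alone and gave -0.23 (adjusted p = 0.176), a scaling under which the median of all genes was 0.29 higher in colon.

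Glul was higher in colon by 0.50 (SE 0.16, adjusted p = 0.0388) in control mice and 0.48 (SE 0.16, adjusted p = 0.0421) in KO mice, a fold of 1.41 and 1.399. The call was lost without ileum control replicate 3 (0.35, adjusted p = 0.123) or colon control replicate 3 (0.36, adjusted p = 0.155) in control mice, and without ileum KO replicate 1 (0.37, adjusted p = 0.139) or colon KO replicate 3 (0.44, adjusted p = 0.109) in KO mice. The direction was the same in all of these. Without the low-muscle pair the calls remained, at 0.35 (SE 0.14, adjusted p = 0.0822) in control mice and 0.39 (SE 0.14, adjusted p = 0.0571) in KO mice.

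Arg2 was lower in colon by the largest fold of the 8, to 0.358 of the ileal level in control mice (log2 -1.48, SE 0.52, adjusted p = 0.0522) and 0.342 in KO mice (log2 -1.55, SE 0.52, adjusted p = 0.0436). In control mice the call was lost without any one of ileum replicates 1 and 3 and colon replicates 2 and 3, with values from -1.34 to -1.14, and with only the libraries of control mice fitted (-1.49, adjusted p = 0.111). In KO mice it was lost without ileum replicate 1 (-1.16), colon replicate 1 (-1.43) or colon replicate 3 (-1.56). Without the low-muscle pair Arg2 still passed, at -1.14 (SE 0.48, adjusted p = 0.088) in control mice and -1.15 (SE 0.48, adjusted p = 0.0822) in KO mice.

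Sod2 was higher in colon of KO mice by 0.30 (SE 0.11, adjusted p = 0.0582), and the value in control mice was 0.09 (SE 0.11, adjusted p = 0.586). The KO call was lost without colon KO replicate 1 (0.17, adjusted p = 0.298), without any one of the 3 ileal KO libraries (0.28 to 0.31, adjusted p from 0.113 to 0.160) and with no filter on low counts (0.33, adjusted p = 0.121). Without the low-muscle pair the KO call remained (0.32, adjusted p = 0.0824). The difference of the 2 tissue effects, 0.21 (SE 0.15), did not pass the test (adjusted p = 0.99998).

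Atp2c2 did not pass by edgeR with all libraries, at 0.50 (SE 0.33, adjusted p = 0.285) in control mice and 0.72 (SE 0.33, adjusted p = 0.129) in KO mice. Without the low-muscle ileal pair it passed in both, at 0.96 (SE 0.18, adjusted p = 0.00167) and 1.09 (SE 0.18, adjusted p = 6.6e-04). It passed in 9 of 24 alternatives in KO mice, among them limma-voom with all libraries (0.83, adjusted p = 0.057), and in 2 of 24 in control mice, the other being without ileum control replicate 3 (0.97, adjusted p = 0.0286). Atp2c1 was at -0.20 (SE 0.12, adjusted p = 0.261) and -0.06 (SE 0.12, adjusted p = 0.757), Pc at 0.04 (SE 0.19, adjusted p = 0.882) and -0.35 (SE 0.19, adjusted p = 0.182), and Arg1 at 0.04 (SE 0.53, adjusted p = 0.964) and 0.70 (SE 0.57, adjusted p = 0.389), in control and KO mice. None of these 3 genes passed in either genotype. The KO value of Pc was -0.12 without the low-muscle pair and -0.14 without ileum KO replicate 1. Arg1 was at 0.68 in control mice without ileum control replicate 1, and at -0.16 and 1.16 without the pair, in control and KO mice.

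**Figure D3:**
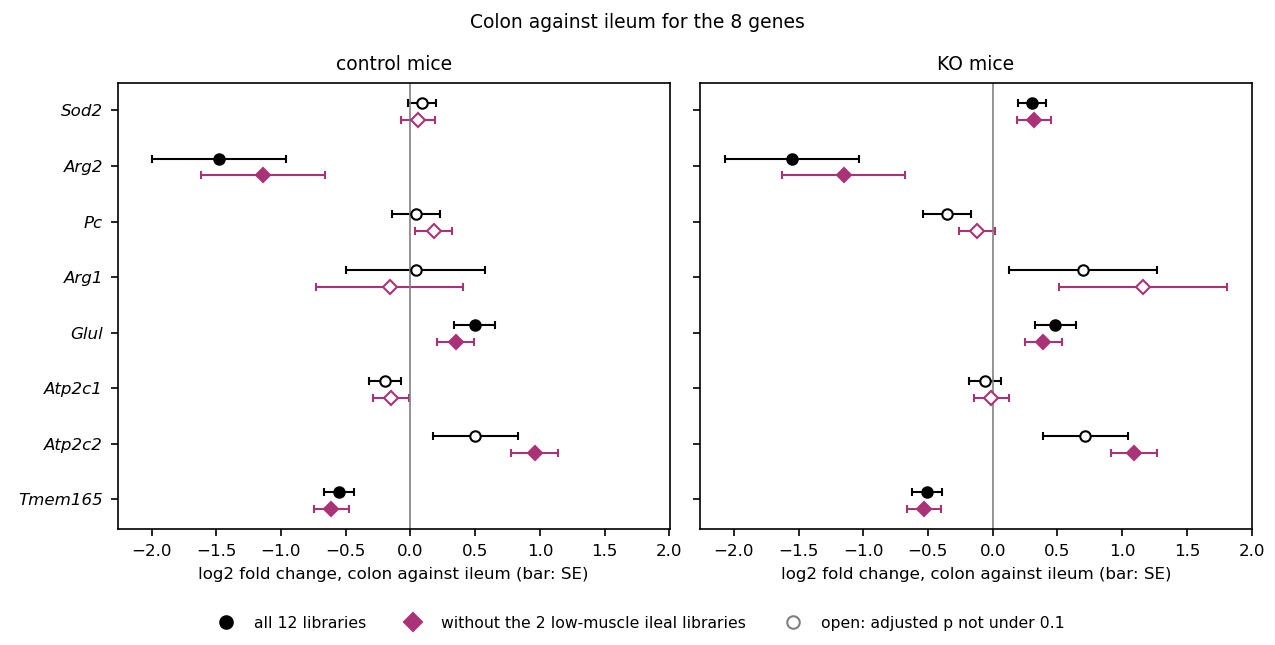
Log2 fold change of the 8 genes in colon against ileum, for control mice (left) and KO mice (right), with all 12 libraries (black) and without the 2 low-muscle ileal libraries (purple). Bars are SE, filled symbols have an adjusted p under 0.1, and Atp2c2 is filled in both genotypes only without the pair.

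RNA levels of markers of several cell types also differed between the tissues. The 5 epithelial markers (Epcam, Krt8, Vil1, Cdh1 and Krt20) summed to 15578 to 20273 CPM in ileum and to 7794 to 9024 in colon, with no overlap between the tissues. The 4 Paneth cell markers summed to 4252 to 13068 CPM in ileum and to 5.13 to 12.04 in colon, and 3 enteroendocrine markers to 57.3 to 180 in ileum and 290 to 470 in colon. The 4 goblet cell markers summed to 9083 to 12395 CPM in ileum and to 6485 to 9287 in colon, but within that list Muc2 was higher in colon (log2 1.001 in control mice, SE 0.20, adjusted p = 0.00356, and 1.403 in KO mice, SE 0.21, adjusted p = 4.06e-04), while Clca1, Fcgbp and Tff3 were lower. Markers of T and B cells (4 genes) summed to 25.6 to 34.0 CPM in ileum and 6.01 to 11.7 in colon, and 4 markers of enteric glia and neurons to 0.537 to 6.17 in ileum and 6.60 to 12.8 in colon, again with no overlap. The sums of macrophage, neutrophil, plasma cell, stromal, endothelial and smooth muscle markers overlapped between the tissues, but single markers on these lists differed. In control mice Itgam (log2 -2.75, adjusted p = 4.11e-05), Csf1r (-0.73, adjusted p = 0.0999), Mzb1 (-2.83, adjusted p = 0.00406) and Igha (-2.69, adjusted p = 0.0245) were lower in colon. The other macrophage and plasma cell markers were not called there. In KO mice the same genes were lower, and the endothelial marker Pecam1 was higher (1.02, adjusted p = 0.0591). No marker on these lists was at 0 in all libraries. Their part in the tissue differences of Arg2, Glul, Sod2 and Tmem165 was not tested.

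Within ileum the low-muscle pair had its own pattern among the 8 genes. Atp2c2 averaged 17.96 CPM in the pair and 8.95 in the other 4 ileal libraries, Arg2 94.7 and 50.01, and Pc 51.8 and 36.4, and in each of these genes both low-muscle libraries were above all 4 others. Glul went the other way, at 55.4 CPM in the pair and 72.0 in the others, with both below all 4. Sod2, Arg1, Atp2c1 and Tmem165 overlapped, with pair to other ratios of 1.01, 1.004, 1.12 and 0.925. The pair also had 32.3 and 34.0 CPM of 4 stromal markers against 243 to 484 in the other ileal libraries, and its Paneth cell sums, 10362 and 13068, were the highest. The pair holds 1 library of each genotype and was set apart by its muscle transcripts, so these are values with no test. The KO to control ratio inside and outside the pair was 0.943 and 0.916 for Sod2, 1.02 and 0.284 for Arg1, 0.999 and 0.948 for Arg2, 1.29 and 1.15 for Pc, 1.14 and 1.09 for Glul, 0.897 and 0.963 for Atp2c1, 0.966 and 1.13 for Atp2c2, and 0.996 and 0.987 for Tmem165. The ratio inside and outside was furthest apart for Arg1, at 3 to 17 counts a library.

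**Figure D4:**
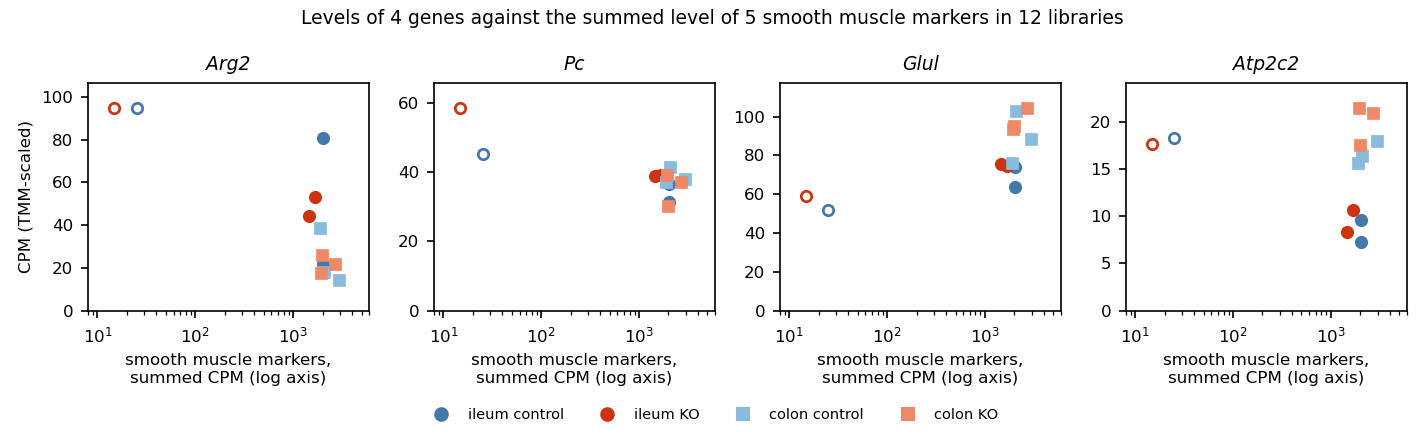
CPM of Arg2, Pc, Glul and Atp2c2 against the summed CPM of 5 smooth muscle markers (log axis) in 12 libraries, with ileum as circles and colon as squares. The 2 open circles are the low-muscle ileal libraries, which lie high for Arg2, Pc and Atp2c2 and low for Glul among ileal libraries.

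The genes lie at chr17:13006846-13040063 (Sod2, plus strand), chr12:79130777-79156301 (Arg2, plus), chr19:4510472-4621752 (Pc, plus), chr10:24915221-24927484 (Arg1, minus), chr1:153899944-153909723 (Glul, plus), chr9:105403539-105527319 (Atp2c1, minus), chr8:119700009-119757717 (Atp2c2, plus) and chr5:76183880-76209245 (Tmem165, plus) in GRCm38, and all are protein-coding. Exons of some are shared with a neighbour, and whether counting used the strand is not known, so part of their reads could be the neighbour's. The 3′ ends of Arg2 and Vti1b overlap by 285 exon bases, and Vti1b was at 110 CPM in control ileum and 87.0 in control colon. Exons of Atp2c1 and Aste1 share 1837 bases, and Aste1 was at 6.48 and 7.57 CPM there. Glul shares 116 exon bases with Teddm2, which was below the filter, and 93 with the microRNA gene Mir8114. Tmem165 shares 59 bases with a pseudogene of Apc, and Arg2 shares 116 with the antisense gene Gm48780. Vti1b did not pass by tissue in control mice (log2 -0.34, SE 0.14, adjusted p = 0.1004) and passed in KO mice (-0.36, SE 0.14, adjusted p = 0.0868).

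Levels of different genes can only be compared per length, here as CPM per kilobase of all exons of a gene. In control ileum the order of the mean levels was Arg2 (46.1 ± 27.1, SD, n = 3), Tmem165 (24.0 ± 3.25), Glul (19.0 ± 3.37), Pc (7.92 ± 1.48), Sod2 (6.59 ± 0.473), Atp2c1 (5.90 ± 0.624), Atp2c2 (3.63 ± 1.80) and Arg1 (0.289 ± 0.192). Arg2, Tmem165 and Glul overlapped in sequence, as did Pc, Sod2, Atp2c1 and Atp2c2, and Arg1 lay below all. In KO ileum the order was the same, with Arg2 at 44.8 ± 18.9 above Tmem165 at 23.7 ± 1.13 in every library. In control colon Glul led at 26.8 ± 4.08, followed by Arg2 at 16.5 ± 9.22 and Tmem165 at 16.4 ± 1.24, which overlapped. In KO colon Glul at 29.3 ± 1.78 was above Tmem165 at 16.7 ± 0.668 in every library. The order depends on the length taken. By the median length of the annotated transcripts, Glul was first in all 4 groups, Arg2 sixth and Arg1 last.

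Genes whose log2 CPM followed a gene most closely over the 12 libraries are named as a description, since each is the best of 16558 and the libraries share the tissue difference and their scaling. Tmem165 was followed most closely by Ptgr1 (Pearson r = 0.98), Hsp90b1 (0.98) and Wdr54 (0.97), and Glul by Col12a1 (0.97), Nos1 (0.97) and Olfm1 (0.97). Atp2c2 was followed by Atp13a2 (0.98), Adgrg1 (0.98) and Acvr1b (0.97), and Arg2 by Sass6 (0.94), Gm11437 (0.93) and Car13 (0.93). The other 4 genes had looser partners, with Pc followed by Ints9 (0.93) and Tfip11 (0.91), and Arg1 by Gm16794 (0.91), Zfp52 (0.89) and F5 (0.89). Atp2c1 was followed by Pias1 (0.87) and Col4a3bp (0.86), and Sod2 by Rbm48 (0.89), Ptpru (0.89) and Fbxo7 (0.85). Among the 8 genes themselves, r was highest for Arg2 and Tmem165 (0.79) and lowest for Arg2 and Glul (-0.88).

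The 8 genes were set beside 8 lists of related genes, 98 in all, of which Atp2a1 alone fell below the filter. These lists too were chosen with earlier results of the data known. With all libraries, edgeR called no gene on any list by genotype, and the smallest p among the listed genes was that of Slc39a8, given above. The tissue counts below are for control mice, to be read against the 35.9% of all genes called there.

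Of 7 manganese carriers other than the 8 genes, 3 were higher in colon, 0 lower and 4 not called, with a median log2 fold change of 0.98 against 0.02 over all genes. Slc30a10, the exporter of manganese at the cell surface, was at 43.3 ± 4.97 CPM in ileum and 233 ± 61.3 in colon (log2 2.42, SE 0.31, adjusted p = 0.000149). Slc40a1, ferroportin, was at 125 ± 66.7 and 499 ± 54.4 (log2 2.002, SE 0.44, adjusted p = 0.00549), and the third was Slc39a8 itself. In KO mice the counts were also 3 higher and 0 lower.

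Of 9 other enzymes that use or can use manganese, 4 were lower in colon and 0 higher, with a median of -0.24. The 2 largest were peptidases of proline-containing peptides. Xpnpep2 was at 488 ± 121 CPM in ileum and 5.83 ± 1.76 in colon (log2 -6.39, SE 0.36, adjusted p = 3.51e-07), and Pepd, prolidase, at 444 ± 16.96 and 15.8 ± 1.80 (log2 -4.81, SE 0.16, adjusted p = 2.46e-08). In KO mice 6 were lower and 0 higher.

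Of 22 Golgi glycosyltransferases that use manganese, the enzymes that Atp2c1, Atp2c2 and Tmem165 serve, 7 were higher and 6 lower in colon, with a median of 0.05. B4galt6 fell from 103 ± 13.1 to 25.4 ± 5.38 CPM (log2 -2.03, SE 0.19, adjusted p = 1.28e-05) and Galnt1, which starts O-linked chains, from 338 ± 65.8 to 90.6 ± 5.72 (log2 -1.90, SE 0.17, adjusted p = 8.94e-06). Galnt12 rose from 34.4 ± 5.33 to 78.9 ± 4.54 (log2 1.19, SE 0.12, adjusted p = 2.42e-05). Higher and lower members were thus about equal in number, and in KO mice they were 6 and 6. Of 9 calcium pumps and calcium proteins of the secretory pathway, 2 were higher (Stim1 and Atp2a3) and 3 lower (Orai1 and Atp2a2 with the largest changes), and in KO mice 2 and 3.

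Arg2 has around it 13 genes of arginine and ornithine metabolism, of which 9 were lower in colon and 1 higher, with a median of -1.88. Cps1, which starts the urea cycle, was at 391 ± 295 CPM in ileum and 3.19 ± 1.41 in colon (log2 -6.94, SE 0.62, adjusted p = 1.03e-05). Nos2, the inducible nitric oxide synthase that competes for arginine, was at 353 ± 284 and 7.26 ± 4.59 (log2 -5.60, SE 0.97, adjusted p = 0.0013). Ass1, which makes argininosuccinate, was the gene that rose, from 4.48 ± 1.18 to 10.98 ± 4.61 (log2 1.29, SE 0.30, adjusted p = 0.00743). In KO mice 8 were lower and 1 higher. Arg2 was thus lower in colon along with most of this list.

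Glul has around it 10 genes of glutamine and glutamate metabolism, of which 3 were higher and 5 lower, with a median of -0.64. Asns, which makes asparagine from glutamine, was at 28.3 ± 8.98 CPM in ileum and 11.5 ± 0.748 in colon (log2 -1.30, SE 0.21, adjusted p = 0.000728). The alanine transaminase Gpt2 rose from 5.64 ± 1.99 to 17.96 ± 0.953 (log2 1.66, SE 0.23, adjusted p = 0.000231) and the glutamine importer Slc1a5 from 58.3 ± 11.8 to 103 ± 20.5 (log2 0.82, SE 0.19, adjusted p = 0.00727). In KO mice the counts were the same, 3 and 5.

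Around Pc, 15 pyruvate and biotin enzymes gave 7 higher and 4 lower, with a median of 0.18. Pdk4, which shuts pyruvate dehydrogenase off, rose from 2.49 ± 0.768 to 48.6 ± 27.8 CPM (log2 4.301, SE 0.73, adjusted p = 0.00107) and Acacb, a biotin carboxylase of fatty acid metabolism, from 2.24 ± 0.855 to 31.3 ± 7.01 (log2 3.82, SE 0.44, adjusted p = 7.67e-05). Me2, mitochondrial malic enzyme, fell from 551 ± 150 to 134 ± 17.3 (log2 -2.04, SE 0.23, adjusted p = 5.83e-05) and Fbp1 from 6.93 ± 5.96 to 0.785 ± 0.214 (log2 -3.14, SE 0.66, adjusted p = 0.00422). Around Sod2, 12 genes of superoxide and peroxide removal gave 2 higher and 2 lower, with a median of 0.11. Sod1, the copper and zinc enzyme, and its copper chaperone Ccs were higher by 0.48 (SE 0.16, adjusted p = 0.0427) and 0.78 (SE 0.19, adjusted p = 0.0108), and Gpx2 fell from 828 ± 452 to 112 ± 27.7 CPM (log2 -2.89, SE 0.37, adjusted p = 0.000151). Prdx5 was lower by a smaller step (log2 -0.42, SE 0.17, adjusted p = 0.085). In KO mice the pyruvate list had 6 higher and 4 lower and the superoxide list 1 and 2.

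**Figure D5:**
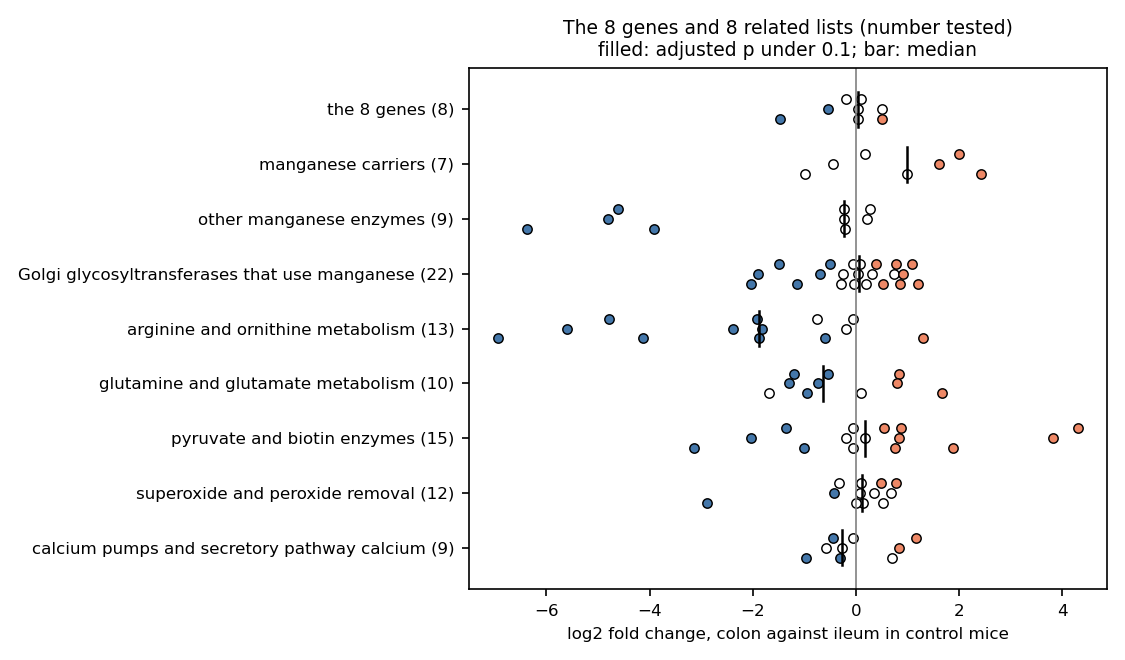
Log2 fold change in colon against ileum of control mice for the 8 genes and for each gene of 8 related lists, 1 point a gene, with the number tested in brackets. Filled points have an adjusted p under 0.1 and bars are list medians, which run from -1.88 for arginine and ornithine metabolism to 0.98 for manganese carriers.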

How the data were processed

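Total RNA of ileal or colonic mucosa was sequenced from oligo-dT-primed cDNA, and expected counts per gene, of which 93.7% were whole numbers, were deposited by the authors in 1 table, not normalized. The submitters' processing notes name STAR and mm10; the counting tool is not named there. The 92 spike-in lines had 0 counts and were left out. Counts were rounded, genes kept with filterByExpr, and TMM factors computed. edgeR 4.0.16 (R 4.3.3) quasi-likelihood tests gave p-values, corrected over 16558 genes (Benjamini-Hochberg), and 0.1 was the threshold, following the study. All 12 libraries were fitted, over both tissues with tissue as an additive term, otherwise with 4 groups. SE was taken from the F statistic. CPM uses the TMM-scaled library size. Adjusted p-values are from edgeR unless named. DESeq2 1.42.0 and limma 3.58.1 were alternatives. Scripts were tested on simulated data. Permutation tests used log2 of CPM plus 0.5. Coordinates are from GENCODE M21, where Pc is named Pcx. Sod2 and Pc were matched without the version of their identifiers. Ileal and colonic libraries were taken as independent. Deviations from the group means were correlated between same-numbered ileal and colonic libraries. The correlations ran from -0.08 to 0.16 in control mice and from 0.05 to 0.25 in KO mice. They do not decide whether the tissues came from the same mice, and the main fit used no pairing. The 8 genes, the lists and the markers were chosen with earlier results of these data known. Named were the 8 genes with 3 closest genes each, Slc39a8, and on each list any gene called by genotype and the 2 with the largest change in each direction among those called between tissues in control mice. A few genes that this rule names are not reported here. Total counts ranged from 16749138 to 27903083, and precision is given by the spread between libraries.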

Additional observations from a re-analysis of the deposited data

How the results depend on the processing

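The 8 genes were recomputed under 22 to 24 alternatives, depending on the gene and comparison, which include leaving out each of the 12 libraries. None of the 8 was called by genotype under any of them. The number called in colon against ileum was 3 in control mice, and ran from 1 (without colon control replicate 3) to 3 when 1 library was left out. In KO mice it was 4, and ran from 2 (without ileum KO replicate 1, colon KO replicate 1 or colon KO replicate 3) to 5. Without the low-muscle pair the counts were 4 and 5. Scaling by library size alone reversed the colon against ileum value of Atp2c1 in control mice to 0.02 (adjusted p = 0.941); it raised the median of all genes to 0.24 in control mice and 0.29 in KO mice and turned 2689 higher and 3251 lower calls in control mice into 4156 and 2102, and 2837 and 3312 in KO mice into 4637 and 1908. Upper-quartile factors gave 3373 and 2741, and 3678 and 2634, with medians of 0.12 and 0.14. With a replicate block, Atp2c2 passed in KO mice (0.78, adjusted p = 0.0818), which made 5 calls, and no other call of the 8 changed; the numbers do not mark shared animals in the labels. Of 1129 member values under alternatives, 1077 kept their call and stayed within 1 SE, 20 lost a call, 11 gained one, 20 moved further and 1 reversed. The sign changed in 78 of the 1129, and 77 of these were effects under 1 SE. Counts over all genes by genotype were 0 with edgeR on all 12 libraries. The fits with libraries left out, given next, also used edgeR. Over both tissues they were 4 with DESeq2, 1 with limma-voom, 5 without the low-muscle pair, and 1 without ileum control replicate 3 or ileum KO replicate 1. In ileum they were 2 with DESeq2, 1 with limma-voom, 3 without the pair and 1 without ileum KO replicate 1, in colon 1 with the colonic libraries alone, and for the difference between tissues 1 with DESeq2. With 3 libraries a group, the 95% intervals of the 2 arginases are wide (given with their folds), and the data do not tell the folds inside them apart.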
